A study of Mus musculus with 18 samples.

Results

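The 10 genes described here are the constant genes of mouse antibodies and the joining chain: Ighm, Ighd, Igha, Ighg1, Ighg2b, Ighg2c and Ighg3 for the heavy chains, Igkc and Iglc1 for the light chains, and Jchain. They were picked by name, all 10 were found, and they are 10 of 55487 genes in each table. Their RNA was followed through 18 poly(A) RNA-seq libraries of regulatory T (Treg) cells, which are CD4+Foxp3+ T cells, from wild-type, untreated mice. The cells were freshly sorted from peripheral blood, spleen, lymph node, liver, lung and bone marrow, with 3 libraries per site, and the series sets peripheral blood against the organs. The sorting gates, and the strain, sex, age and number of the mice behind a library, are not given in the sources used here. Nothing says that the 3 libraries of a site came from separate animals, so p-values measure only the spread between these libraries, which may be technical.

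An antibody has a pair of heavy chains and a pair of light chains, and the constant gene of the heavy chain sets its class. A naive B cell makes IgM (Ighm) and IgD (Ighd) from the same primary transcript by alternative splicing. After class switching, the cell joins its variable region to a downstream constant gene and makes IgG or IgA. Plasma cells devote much of their mRNA to secreted antibody and express Jchain, which links IgA and IgM into polymers. T cells do not normally make antibody, and which cells this RNA came from in the sorted Treg libraries was not tested. In bulk RNA, fewer cells of a type and less RNA per cell cannot be told apart, and a share of RNA is not a share of cells.

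In the GENCODE M21 annotation of GRCm38 (mm10), all 7 heavy chain genes lie on the minus strand of chromosome 12. Ighm spans chr12:113418558-113422730, Ighd chr12:113406604-113416324, Ighg3 chr12:113356224-113361232, Ighg1 chr12:113325240-113330523, Ighg2b chr12:113302965-113307933, Ighg2c chr12:113285325-113288932 and Igha chr12:113254830-113260236. Igkc lies on the plus strand at chr6:70726435-70726966, Iglc1 on the minus strand at chr16:19061618-19062071 and Jchain on the minus strand at chr5:88519809-88527891. The 4 IgG genes are close relatives, so their sequences decide how well reads can be told apart. Here are 90 coding bases from base 4 of the annotated transcript of each, with capitals at the 29 positions where the 4 differ:
Ighg3: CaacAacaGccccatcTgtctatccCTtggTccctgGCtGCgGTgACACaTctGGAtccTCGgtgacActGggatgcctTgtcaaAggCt
Ighg1: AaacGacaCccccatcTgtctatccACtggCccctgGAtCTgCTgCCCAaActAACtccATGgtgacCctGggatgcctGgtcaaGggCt
Ighg2b: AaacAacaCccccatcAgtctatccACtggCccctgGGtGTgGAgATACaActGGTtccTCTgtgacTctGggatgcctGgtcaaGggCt
Ighg2c: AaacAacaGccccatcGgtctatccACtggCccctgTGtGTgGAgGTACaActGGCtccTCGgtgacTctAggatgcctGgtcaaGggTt

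Over their aligned transcripts, Ighg2b and Ighg2c were 83% identical and the other IgG pairs 75.1% to 77.3%. Stretches of 50 bases that also occur in another gene made up 5.49% of those in Ighg2c and 4.15% in Ighg2b, against 1.58% in Ighg3 and 0.39% in Ighg1. None of the 50-base stretches of Ighm, Ighd, Igha, Igkc or Iglc1 occurred in another gene. A small part of the Ighg2b and Ighg2c values is therefore uncertain. The lambda light chain has 3 further constant genes, of which Iglc2 and Iglc3 had RNA in all sites, while Iglc4 was listed at 3.45 TPM in 1 blood library and at 0 in the other 17. Iglc2 spans chr16:19198396-19200351 and Iglc3 chr16:19065230-19065681, both on the minus strand. They are shown from base 4 (base 5 for Iglc2) because Iglc1, the member, shares no 50-base stretch with them, and capitals mark the 22 positions of 90 where the 3 differ:
Iglc1: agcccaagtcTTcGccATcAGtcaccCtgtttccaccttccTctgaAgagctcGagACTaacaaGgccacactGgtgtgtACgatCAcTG
Iglc2: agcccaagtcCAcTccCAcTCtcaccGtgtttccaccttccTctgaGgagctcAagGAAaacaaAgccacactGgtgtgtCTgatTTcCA
Iglc3: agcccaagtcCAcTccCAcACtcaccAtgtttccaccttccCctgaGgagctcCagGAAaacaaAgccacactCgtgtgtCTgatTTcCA
Iglc2 and Iglc3 were 95.4% identical over their transcripts, and 22.3% of the 50-base stretches of Iglc3 occurred elsewhere. Iglc1 was 69.2% and 70.7% identical to them.

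Values are TPM, length-normalised transcript abundances scaled to a common total, so levels can be compared between genes, but library depth is not kept. Genes with a value above 0 numbered 14314 to 14408 per liver library, 15219 to 15606 in lung, 16685 to 16756 in spleen and 18985 to 19797 in the other sites. Foxp3 averaged 88.6 TPM in blood and 140 to 239 TPM elsewhere, and Cd4 155 TPM in blood and 274 to 403 TPM elsewhere. The geometric mean of 20 T cell genes was 129 to 132 TPM in blood, 183 to 187 in bone marrow and 198 to 284 in the other organs. The 8 myeloid markers had a mean sum of 24248 TPM for blood and 37440 TPM for marrow, against 49.9 to 1507 TPM elsewhere. The sum of the 6 platelet markers was 2755 TPM for blood and 3.28 to 76.1 TPM elsewhere. The part of these RNAs in the results on antibody genes was not tested.

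All 10 members differed among the 6 sites (limma F test on log2(TPM + 1), adjusted p at most 1.99e-06 for any member), where 68% of the 16694 tested genes did. Over the 15 pairs of sites, 112 of 150 member tests passed an adjusted p of 0.05, against 33.8% of all gene tests. All 10 passed the filter on low values, but Ighg2b and Ighg2c reached a mean of 1 TPM only in spleen and bone marrow, so these had to differ. Of all TPM, the members together made up 0.363% ± 0.0089 in spleen, 0.266% ± 0.0038 in marrow and 0.164% ± 0.0031 in blood (SD, n = 3). The shares were 0.0708% ± 0.0018 in lymph node, 0.0465% ± 0.002 in liver and 0.0419% ± 0.0024 in lung.

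**Figure D1:**
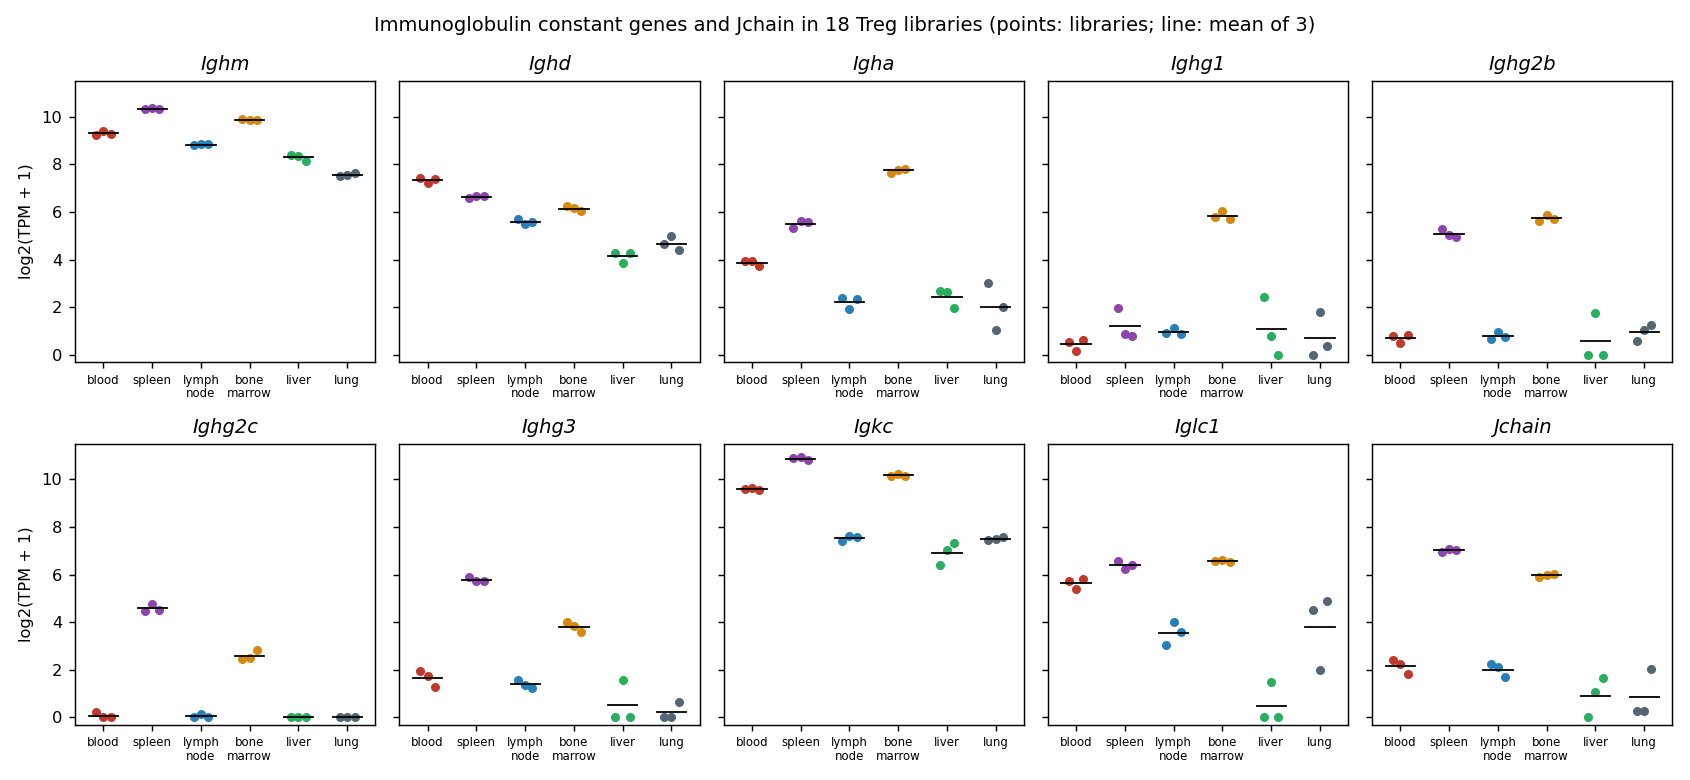
log2(TPM + 1) of the 10 members in 18 libraries, by site (each point 1 library, each line the mean of 3). Ighm and Igkc are high in all sites, Ighd is highest in blood, and Igha, the IgG genes and Jchain are high only in spleen or bone marrow or both.

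IgM RNA was highest in spleen and IgD RNA in blood. Ighm, the constant gene of the first antibody class a B cell makes, stood at 1265, 1308 and 1290.4 TPM in the 3 spleen libraries and at 958, 933 and 931 TPM in bone marrow. It was 601, 665 and 621 TPM in blood, 449, 457 and 458 TPM in lymph node, 336, 329 and 278 TPM in liver, and 181, 187 and 199 TPM in lung. No 2 neighbouring sites in this order overlapped, and each of the 5 neighbouring pairs differed. The smallest step, from bone marrow up to spleen, was 0.45 ± 0.06 (SE) on the log2(TPM + 1) scale (adjusted p = 3.89e-05). This step and the next, from blood up to bone marrow, were lost when each library was scaled to its T cell genes (adjusted p = 0.371 and 0.344).

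Ighd, whose product sits with IgM on the surface of mature naive B cells, was 172, 147 and 164 TPM in blood and 95.4, 102 and 99.8 TPM in spleen. It was 74.1, 69.8 and 64.5 TPM in bone marrow and 50.5, 43.7 and 46.4 TPM in lymph node, with 20.1 to 30.5 TPM in lung and 13.3 to 18.6 TPM in liver. No neighbouring sites overlapped and all 5 neighbouring pairs differed. Blood exceeded spleen by 0.69 ± 0.14 (adjusted p = 0.00107), and by 1.57 with T cell scaling. Spleen exceeded bone marrow by 0.51 ± 0.14 (adjusted p = 0.0157), a call that ended without spleen replicate 2 (adjusted p = 0.0504), without bone marrow replicate 3 (adjusted p = 0.0663) and with T cell scaling (adjusted p = 0.509). Lung exceeded liver by 0.53 ± 0.14 (adjusted p = 0.00863), but not with library weights (adjusted p = 0.0916) or in a fit of these 6 libraries alone (adjusted p = 0.214). The ratio of Ighm to Ighd was 3.49 to 4.53 in blood, 6.12 to 9.92 in lung, 8.89 to 10.5 in lymph node, 12.9 to 13.3 in spleen, 12.9 to 14.4 in bone marrow and 15 to 24.8 in liver. Every blood library was below every library of the 5 organs.

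The switched classes were high in bone marrow and spleen, in different proportions. Of the 10 members, 5 were higher in spleen than in bone marrow and 2 lower, with 24.1% of all genes called, 5.92% higher and 18.2% lower. Higher were the switched genes Ighg2c and Ighg3 together with Ighm, Ighd and Igkc, and lower were the switched genes Igha and Ighg1. Igha encodes IgA, the class that is exported across mucosal surfaces. It was 200.4, 219 and 222 TPM in bone marrow, 39.4, 48.4 and 46.3 TPM in spleen, and 14.2, 14.3 and 12.2 TPM in blood. Bone marrow, spleen and blood did not overlap, and liver, lymph node and lung lay lower, at 1.05 to 7 TPM, and overlapped one another. Bone marrow exceeded spleen by 2.24 ± 0.34 (adjusted p = 0.000136) and blood exceeded liver by 1.42 ± 0.34 (adjusted p = 0.00357). Spleen exceeded blood by 1.65 ± 0.34 (adjusted p = 0.00126), which did not pass with T cell scaling (adjusted p = 0.0563).

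Ighg1, the IgG subclass typical of responses to protein antigens in mice, was a bone marrow transcript. Its values there were 53.8, 64.2 and 51.6 TPM, and the other 15 libraries held at most 4.44 TPM. Spleen minus bone marrow was -4.63 ± 0.54 (adjusted p = 7.48e-06), and no library of another site came near it. Among the other 5 sites, no neighbouring pair in the order of means differed past the threshold.

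Ighg2b was present in both sites, at 47.6, 56.8 and 51.6 TPM in bone marrow and 37.5, 32.2 and 30.2 TPM in spleen, with at most 2.36 TPM in any library of the other sites. The bone marrow and spleen libraries did not overlap, but the difference of 0.63 ± 0.36 did not pass (adjusted p = 0.244). It passed in a fit of these 6 libraries alone (adjusted p = 0.00718), with a pseudocount of 5 TPM (adjusted p = 0.00548), with library weights (adjusted p = 0.0338), without liver replicate 2 (adjusted p = 0.0251) and with T cell scaling (adjusted p = 0.0249). Spleen exceeded lung, the next site in order, by 4.14 ± 0.36 (adjusted p = 1.57e-07).

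Ighg2c and Ighg3 were highest in spleen instead. Ighg2c was 21, 26.5 and 22.1 TPM in spleen and 4.55, 4.64 and 6.09 TPM in bone marrow, at most 0.18 TPM in blood and lymph node, and listed at 0 in all liver and lung libraries. Ighg3, the subclass known for responses to polysaccharides, was 58.4, 52 and 52.1 TPM in spleen, 15.1, 13.2 and 10.9 TPM in bone marrow and 2.87, 2.35 and 1.42 TPM in blood. For both genes spleen lay above bone marrow with no overlap, by 1.99 ± 0.18 for Ighg2c (adjusted p = 5.86e-07) and 1.98 ± 0.35 for Ighg3 (adjusted p = 0.000524). With a pseudocount of 0.1 TPM the Ighg3 difference was 2.06 and did not pass (adjusted p = 0.14). Ighe, the IgE gene, was listed at 0 in all 18 libraries.

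Jchain RNA was high in spleen and bone marrow. It was 123, 136 and 131 TPM in spleen and 58.1, 63.1 and 64.5 TPM in bone marrow, against 4.28, 3.78 and 2.51 TPM in blood and at most 3.68 TPM in the other 9 libraries. Spleen and bone marrow did not overlap, yet the difference of 1.06 ± 0.43 missed the threshold (adjusted p = 0.0953). It passed in a fit of these 6 libraries alone (adjusted p = 0.000109), with a pseudocount of 5 TPM (adjusted p = 0.000285), with library weights (adjusted p = 0.00812), and without liver replicate 1 (adjusted p = 0.0486) or lung replicate 3 (adjusted p = 0.0221). Bone marrow exceeded blood by 3.82 ± 0.43 (adjusted p = 4.78e-06).

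Light chain RNA was mainly kappa. Igkc, the single kappa constant gene, was 1888, 1940.0 and 1786 TPM in spleen, 1128, 1184 and 1147 TPM in bone marrow, and 769, 797 and 761 TPM in blood. It was 171 to 197 TPM in lymph node, 175 to 191 TPM in lung and 83.8 to 158 TPM in liver, so that lymph node and lung overlapped and the other neighbours did not. Spleen exceeded bone marrow by 0.70 ± 0.15 (adjusted p = 0.00229), and T cell scaling left 0.32 (adjusted p = 0.0982). Lymph node and lung differed by 0.04 ± 0.15 (adjusted p = 0.898), while with T cell scaling lung was higher, with lymph node minus lung at -0.47 (adjusted p = 0.0193). Lung exceeded liver by 0.58 ± 0.15 (adjusted p = 0.00627), and by 0.32 without liver replicate 1. It did not pass in a fit of these 6 libraries alone (adjusted p = 0.245).

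Iglc1 was 95.4, 96.8 and 92 TPM in bone marrow, 95.1, 73.8 and 82.8 TPM in spleen, and 52.2, 41 and 55 TPM in blood. The 3 lung libraries were spread widely, at 21.8, 3.01 and 28.4 TPM, lymph node held 7.31 to 14.9 TPM, and 2 of the 3 liver libraries were listed at 0 with the third at 1.82 TPM. Bone marrow and spleen overlapped. Blood lay below every spleen and bone marrow library, but neither difference passed in the fit of all 18 libraries (adjusted p = 0.339 and 0.241). Each passed in fits of the 6 libraries concerned (adjusted p = 0.00672 and 0.000529), and that against bone marrow also with library weights (adjusted p = 0.015) and without lung replicate 2 (adjusted p = 0.0428). The 3 lambda genes together gave 11.8% to 14.5% of light chain constant TPM in spleen, 19.1% to 19.3% in bone marrow, 23.8% to 26.1% in blood and 22.7% to 23.8% in lymph node. Among these 4 sites, the spleen libraries lay below all those of bone marrow, which lay below all those of lymph node and blood. Lung, at 11.6% to 17.5%, overlapped spleen, and liver, at 14.4% to 32.4%, spread across all the other sites.

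Against blood, the organs fell into a group that held more antibody RNA and a group that held less. Against spleen, 1 member was higher in blood and 7 lower, with 35.4% of all genes called, 20.1% higher and 15.3% lower. Against bone marrow, 1 was higher and 8 lower, with 31.8% of all genes called, 13% higher and 18.8% lower. Ighd was the member higher in blood in both. The median over the 10 members was -1.46 against spleen and -2.33 against bone marrow, where that of all tested genes was 0 and -0.11.

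Against lymph node, 5 members were higher in blood and none lower, with 37.4% of all genes called, 16.4% higher and 21% lower. Those 5 were Ighm, Ighd, Igha, Igkc and Iglc1. Against liver and against lung, 7 members were higher in blood and none lower, where 39.4% and 43.7% of all genes were called. Of all genes, 23.3% were higher in blood than in liver and 16.1% lower, and 26.4% were higher than in lung and 17.3% lower. Jchain and Ighg3 were the additional pair. Over the 5 comparisons, which share the same 3 blood libraries, 36 of 50 member tests passed, against 37.6% of all gene tests.

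The sizes differed by class. Blood minus spleen was -1.03 ± 0.06 for Ighm (adjusted p = 1.74e-09) and -1.27 ± 0.15 for Igkc (adjusted p = 4.59e-06), but -4.13 ± 0.35 for Ighg3, -4.40 ± 0.36 for Ighg2b, -4.51 ± 0.18 for Ighg2c and -4.88 ± 0.43 for Jchain. Blood minus bone marrow was -0.58 ± 0.06 for Ighm and -0.57 ± 0.15 for Igkc, but -3.88 ± 0.34 for Igha, -5.03 ± 0.36 for Ighg2b and -5.41 ± 0.54 for Ighg1. With T cell scaling, the Ighm and Igkc differences from spleen shrank to -0.15 (adjusted p = 0.0433) and -0.39 (adjusted p = 0.0353), and those from bone marrow no longer passed (adjusted p = 0.344 and 0.775). That scaling moved the median of all genes from 0 to 0.70 against spleen and from -0.11 to 0.28 against bone marrow. Under it the differences in Ighg2b, Ighg2c, Ighg3 and Jchain from spleen, and in Igha, Ighg1 and Ighg2b from bone marrow, kept their calls.

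Some calls on weakly expressed members were lost with other settings or without single libraries. Ighg3 exceeded liver by 1.14 ± 0.35 (adjusted p = 0.0174), and adjusted p was 0.0523 to 0.0744 without liver replicate 1, liver replicate 3, blood replicate 1 or blood replicate 2. Jchain exceeded liver by 1.24 ± 0.43 (adjusted p = 0.0318), and without liver replicate 1, blood replicate 1 or blood replicate 2 it was 0.0818 to 0.148. Its difference from lung, 1.31 ± 0.43 (adjusted p = 0.0227), did not pass without lung replicate 1, lung replicate 2, blood replicate 1 or blood replicate 2 (0.0626 to 0.0996). Iglc1 exceeded lung by 1.85 ± 0.56 (adjusted p = 0.0142), and by 0.95 without lung replicate 2 (adjusted p = 0.052). None of these 4 passed in fits of the 2 sites alone (adjusted p = 0.104 to 0.157), and Ighg3 and Jchain against liver did not pass with library weights (adjusted p = 0.0622 and 0.0666). With a pseudocount of 0.1 TPM, Jchain against liver (adjusted p = 0.0521), Iglc1 against lung (0.0962), Iglc1 against lymph node (0.0769) and Ighg3 against bone marrow (0.0537) did not pass, nor did Jchain against liver with no filter (0.0523).

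**Figure D2:**
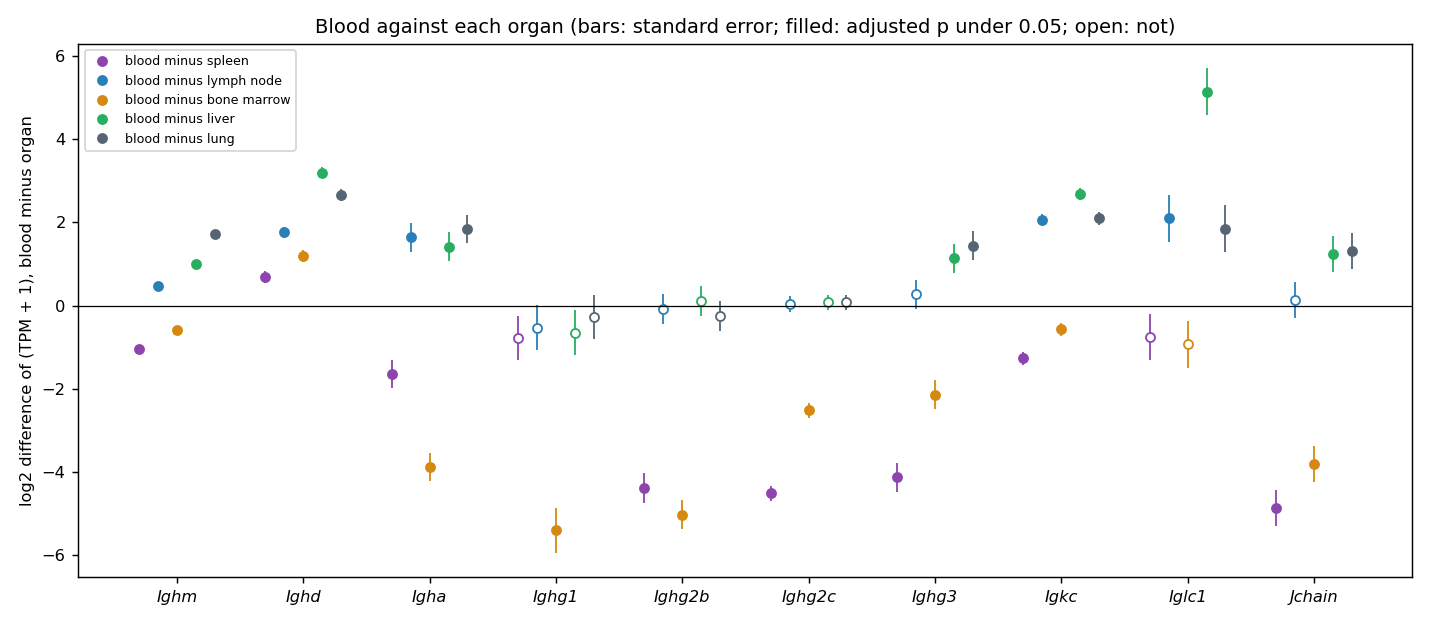
Difference in log2(TPM + 1) of each member, blood minus each organ (bars are standard errors; filled points passed an adjusted p of 0.05). Ighd is above 0 in all 5 comparisons, while Igha, the IgG genes and Jchain reach -1.65 to -5.41 in those against spleen or bone marrow that passed.

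As shares of heavy chain constant RNA, bone marrow and spleen stood apart by their switched classes and blood by IgD. IgM led everywhere, with Ighm at 69.7% ± 1.1 of the summed TPM of the 7 genes in bone marrow and 77.9% ± 2.2 in blood (SD, n = 3). Its share was 83.4% ± 0.24 in spleen, 86% ± 2.4 in lung, 89.4% ± 0.79 in lymph node and 92.8% ± 0.57 in liver. The IgD share was 17.7% to 21.8% in the 3 blood libraries and at most 13.8% in any other library. IgG and IgA together took 23.7% to 26.3% in bone marrow and 9.82% to 10.5% in spleen. They took 1.86% to 2.33% in blood and 1.29% to 1.51% in lymph node. In liver and lung they took 0.979% to 3.55%, where single genes at a few TPM set the value. Bone marrow, spleen and the remaining sites did not overlap in this share. These are descriptions, with no test.

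Within the switched classes, IgA was the largest part in bone marrow (61.2% to 64.8%) and in blood (77.1% to 83.3%). It was also the largest part in each lymph node library (42.9% to 58.6%) and each liver library (51% to 100%). In lung it took 23.3% to 93.2%. Igha stood at only a few TPM in lymph node, liver and lung. Bone marrow added Ighg1 at 15.1% to 17.9% and Ighg2b at 14.8% to 15.9%. In spleen, Ighg3 took 32.5% to 36.7% and Igha 24.7% to 30.6%, followed by Ighg2b at 19.9% to 23.5% and Ighg2c at 13.2% to 16.6%, with Ighg1 at no more than 1.84%. The summed IgG level was 112 ± 7.4 TPM in spleen and 127 ± 11 TPM in bone marrow, while blood held 3.27 ± 0.84 TPM.

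**Figure D3:**
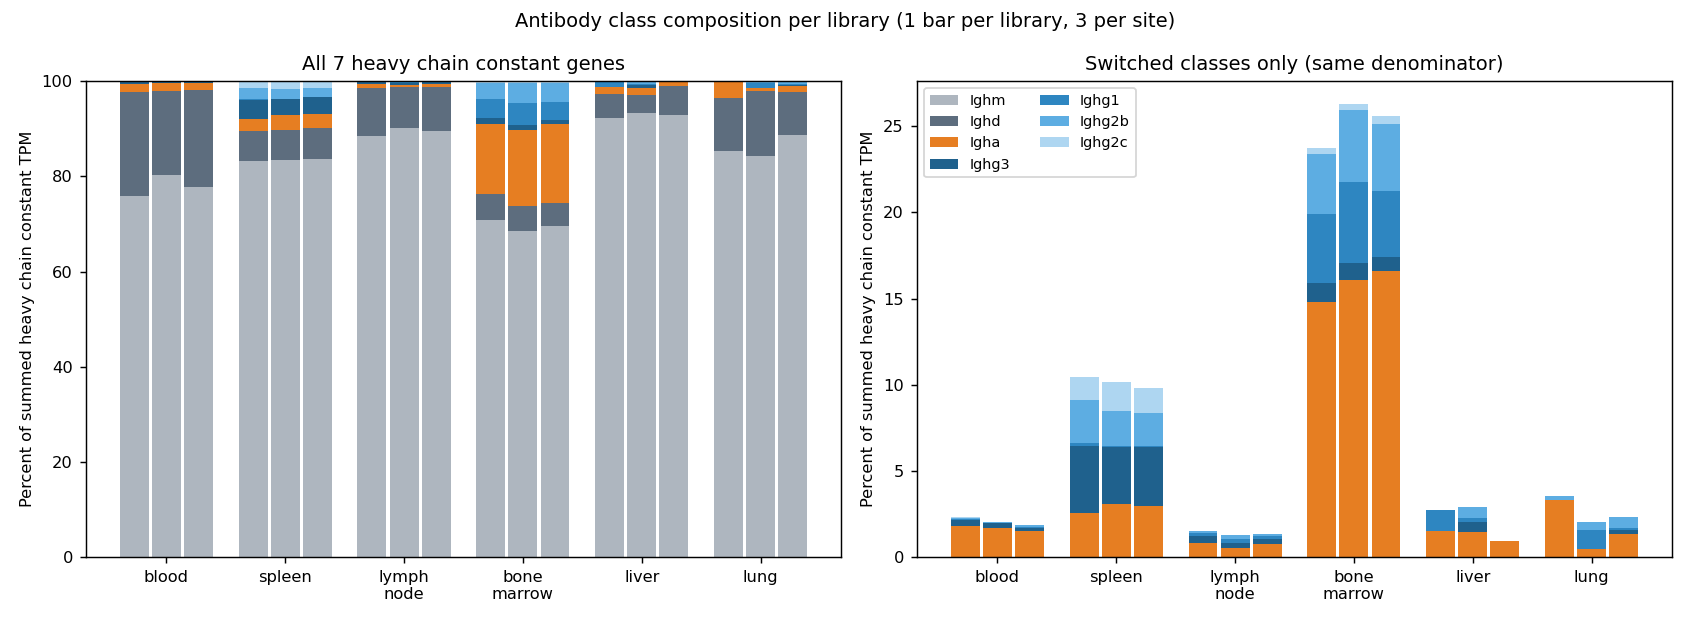
Percent of summed heavy chain constant TPM taken by each class in each of 18 libraries: all 7 genes at left, the 5 switched genes at right on the same denominator. The switched part is 23.7% to 26.3% in bone marrow, led by Igha, 9.82% to 10.5% in spleen, led by Ighg3, and below 4% elsewhere.

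Markers of B cells did not follow the same order as antibody RNA. The sum of the 18 B cell genes was 1022 ± 8.02 TPM for blood, 927 ± 13.9 for bone marrow and 910 ± 54.9 for spleen, then 337 ± 4.20 in lymph node, 248 ± 31.4 in lung and 198 ± 12.5 in liver. Of the 18, 1 was higher in blood than in spleen and 17 were not called, with 35.4% of all genes called. The one was Bank1, a B cell signalling adaptor. Against bone marrow, 5 were higher in blood and 2 lower, where 13% and 18.8% of all genes were. Against lymph node 16 were higher, and against liver and lung all 18. Over all genes, 16.4%, 23.3% and 26.4% were higher in blood than in lymph node, liver and lung. Cd79a, a signalling chain of the B cell receptor, was at 165 ± 9.5 TPM in blood and 148 ± 11 TPM in spleen (blood minus spleen 0.16 ± 0.30, adjusted p = 0.735), and Ms4a1, the surface protein CD20, at 78.9 ± 4.8 and 57 ± 1.4 TPM (0.46 ± 0.29, adjusted p = 0.249).

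Relative to the summed TPM of Cd79a, Cd79b and Ms4a1, a set chosen after its values were seen, Igkc was 4.58 to 5.62 in spleen, 3.40 to 3.47 in bone marrow, 2.29 to 2.57 in liver, 1.90 to 2.15 in lung, 1.69 to 2.03 in lymph node and 1.85 to 1.91 in blood. Each spleen library was above each bone marrow library, and both sites were above the others. Ighm on the same basis was lowest in blood, at 1.49 to 1.58, and reached 4.37 to 4.69 in lymph node and 4.04 to 10.3 in liver. Ighd on this basis was not highest in blood. It was 0.443 to 0.498 in lymph node, 0.349 to 0.427 in blood, 0.256 to 0.294 in spleen and 0.195 to 0.224 in bone marrow. Lung, at 0.199 to 0.360, and liver, at 0.25 to 0.57, overlapped blood. Jchain was 0.331 to 0.393 in spleen, 0.176 to 0.195 in bone marrow and 0.0061 to 0.0106 in blood.

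Heavy and light chains were not in step across sites. The ratio of Ighm to Igkc was 0.670 to 0.723 in spleen, 0.782 to 0.849 in blood and bone marrow, 1.03 to 1.05 in lung, 2.31 to 2.63 in lymph node and 1.76 to 4.01 in liver. Variable segments, which an assembled antibody transcript carries together with its constant region, gave a second view. The 185 Ighv segments summed to 0.426 to 0.559 of heavy chain constant TPM in blood and spleen and 0.340 to 0.390 in bone marrow. They summed to 0.197 to 0.295 in lung, 0.159 to 0.187 in lymph node and 0.0733 to 0.261 in liver. The 160 Igkv segments summed to 0.495 to 1.17 of Igkc, and there lymph node (0.877 to 1.13) overlapped bone marrow (0.798 to 0.927) and blood (1.07 to 1.08). Lymph node thus had much heavy chain constant RNA per Ighv and much Ighm per Igkc, but not much Igkc per Igkv. Liver was alike in its means of Ighv to heavy chain constant genes, 0.138, and of Ighm to Igkc, 2.76. Its mean of Igkv to Igkc, 0.82, lay below those of lymph node (0.98) and bone marrow (0.87), and above those of lung (0.80) and spleen (0.74). The liver libraries spread widely. The source of these differences was not tested.

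**Figure D4:**
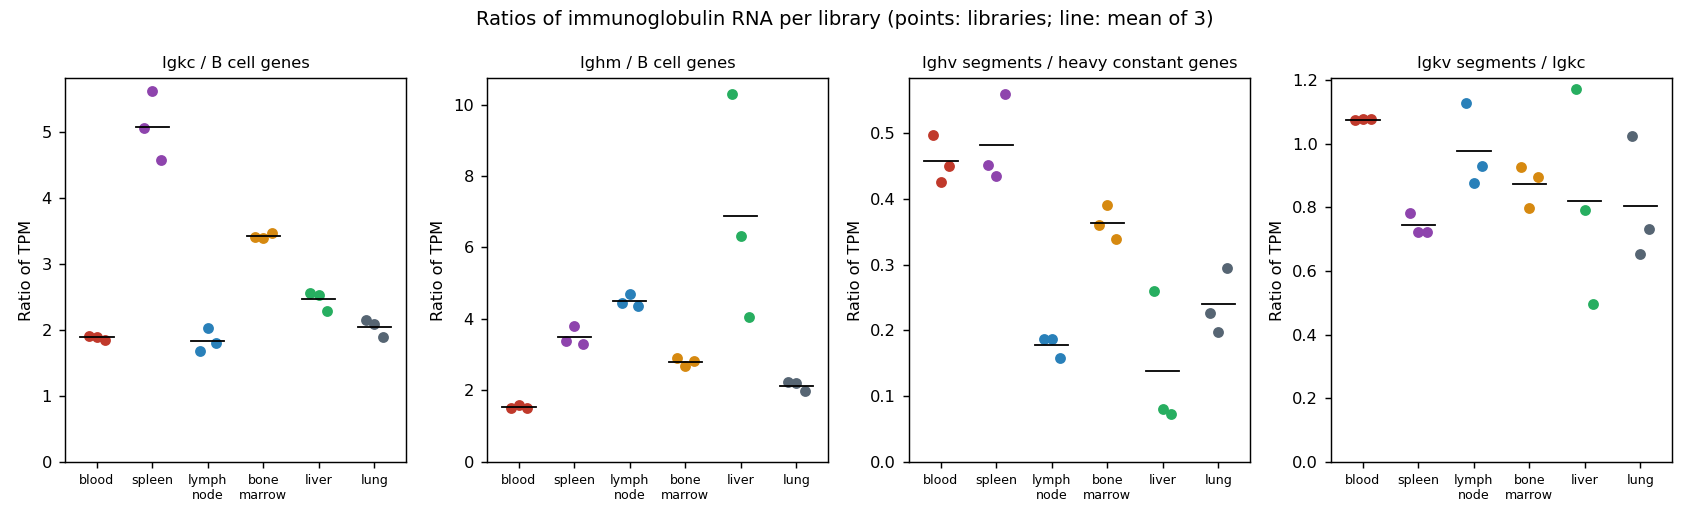
Ratios of TPM per library by site: Igkc and Ighm to the sum of Cd79a, Cd79b and Ms4a1, Ighv segments to heavy chain constant genes, and Igkv segments to Igkc (each point 1 library, each line the mean of 3). Igkc per B cell gene is highest in spleen (4.58 to 5.62), and Ighv per constant gene is 0.159 to 0.187 in lymph node but 0.426 to 0.559 in blood and spleen.

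More variable segments were seen in blood, spleen and bone marrow than in the other sites. Between 66 and 71 Ighv segments exceeded 1 TPM in each blood library, 62 to 66 in bone marrow, 55 to 66 in spleen, 30 to 36 in lymph node, 6 to 8 in lung and 3 to 8 in liver. The order within these groups depended on the cut. Above 5 TPM there were 35 to 39 in spleen, 30 to 31 in blood and 24 to 29 in bone marrow. Lung then had 5 to 7, above lymph node with 1 to 2, and liver had 1 to 6. The largest segment took 5.06% to 10% of Ighv TPM in blood, spleen, bone marrow and lymph node. It took 21.2% to 25.9% in lung and 27% to 66.6% in liver. The liver and lung libraries also had the fewest genes above 0, and the part of depth in these numbers was not tested.

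Several plasma cell genes, such as Xbp1, Prdm1 and Irf4, are also known in T cells. Of the 12, 11 were tested. In blood against spleen 2 were higher and 1 lower, and against bone marrow 1 was higher and 3 lower, shares near the 35.4% and 31.8% called among all genes. Mzb1, a chaperone of antibody assembly, was 30.8 ± 1.4 TPM in spleen, 27.1 ± 3.8 TPM in bone marrow and 13.6 ± 1.3 TPM in blood, with means of 1.73 to 6.45 TPM elsewhere. Blood minus spleen was -1.12 ± 0.71 (adjusted p = 0.252). Tnfrsf17, the plasma cell survival receptor BCMA, averaged at most 0.2 TPM in every site, and Sdc1, the plasma cell surface marker CD138, averaged 0.553 to 4.38 TPM. Sdc1 was 3.15 to 6.28 TPM in bone marrow, 3.03 to 5.11 TPM in lung and 2.46 to 4.74 TPM in liver. Unlike Mzb1 it was low in spleen, at 1.01 to 1.49 TPM, with 1.55 to 2.04 TPM in blood and 0.19 to 0.89 TPM in lymph node. Xbp1, a transcription factor of the secretory programme, was highest in lung (149 ± 1.1 TPM) and blood (139 ± 4 TPM).

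Bone marrow also held RNA of B cell progenitors, which neither blood nor spleen did to that extent. Of 8 progenitor genes, 7 were lower in blood than in bone marrow and 6 lower in spleen than in bone marrow. Over all genes, 18.8% and 18.2% were lower in these comparisons. The surrogate light chain genes Igll1 and Vpreb1 were 24.9 ± 1.7 and 19.3 ± 3.7 TPM in bone marrow and at most 1.67 TPM on average elsewhere, and Rag1, the recombinase, was 10.6 ± 0.68 TPM there and averaged at most 0.75 TPM elsewhere. Lef1, which T cells express, was the one higher in blood.

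Receptors for antibodies include those of myeloid cells. Of the 11, 10 were tested, and 7 were higher in blood than in spleen and 8 than in bone marrow, with none lower. Over all genes, 20.1% and 13% were higher in blood. Fcer1g and Fcgr3, a signalling chain and a receptor for IgG, were 464 ± 28 and 267 ± 4.3 TPM in blood against 15.5 ± 6.6 and 5.69 ± 1.1 TPM in spleen. The summed myeloid markers were also higher in blood than in spleen, at 24248 and 606 TPM. Their sum was lower in blood than in bone marrow, at 37440 TPM. Gene by gene, 4 of these 8 markers were higher in blood than in bone marrow and 3 lower, where 13% and 18.8% of all genes were. The part of myeloid RNA in the receptor counts was not tested. Fcmr, the IgM receptor of B cells, was 74.1 ± 10 TPM in spleen and 62.1 ± 1.3 TPM in blood (adjusted p = 0.711). Pigr, the epithelial transporter of IgA and IgM, averaged at most 1.03 TPM.

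Over the 18 libraries, which are 6 groups of 3 and share site-wide differences, the genes whose log2(TPM + 1) was most like that of Ighd were Cd180 (Pearson r = 0.97), Smim14 (0.95) and Bank1 (0.95), among 12698 genes compared. Cd180, a Toll-like receptor relative of B cells, was 39 to 46.4 TPM in blood, 9.59 to 10.9 TPM in spleen and bone marrow and at most 4.83 TPM in the other libraries. For Igkc they were Ly6d (0.96), Cd79b (0.95) and Srpk3 (0.94). For Igha they were Tmcc2 (0.97), Klf1 (0.94) and Rhd (0.93), and Klf1 and Rhd, genes of red cell precursors, were 26.3 to 36.3 TPM in bone marrow and at most 4.61 TPM elsewhere. For Ighm they were Fis1 (0.91), Bscl2 (0.90) and Brk1 (0.90), and for Jchain Cox6a1 (0.90), Adam11 (0.87) and Oosp1 (0.86). By ranks, the correlation (Spearman rho) was lower for Klf1 (0.74) and Rhd (0.73) with Igha and for Cd79b (0.81) with Igkc. For the other genes named here it was 0.83 to 0.97. These correlations are descriptions of 18 libraries.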

How the data were processed

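Per the submitters' processing notes, STAR and RSEM were used with mm10; their roles, versions, the annotation and any use of strand are not given in the sources used here. Per the labels' protocols, RNA was poly(A)-selected and the library kit marks strand. The authors deposited 1 table of TPM values per library for 55487 Ensembl genes. TPM keeps no depth, so no counting interval can be given, and the spread of 3 libraries sets the precision. No 2 of the 18 tables were identical.

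Symbols and coordinates come from GENCODE M21 (55141 IDs matched). Expression was compared with limma 3.58.1 in R 4.3.3 on log2(TPM + 1) over the 16694 genes whose mean reached 1 TPM in some site, with 1 mean per site in a single fit, moderated variances with trend and robust settings, two-sided tests and Benjamini-Hochberg adjustment over all tested genes of a contrast, with calls at 0.05. On that scale, changes of low genes are understated. The fit was tested on simulated data. Shares and ratios were made from TPM in Python 3.11.15, and identities with Biopython 1.88.

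The members and gene lists were chosen with earlier results of these data known. Named were all 10 members, the 3 highest genes of each list where a result used it, preset markers (some are not reported here), and for 5 members the 3 genes of highest Pearson r. Bank1 and Lef1 were named after their values were seen. Alternatives were 2 other pseudocounts, 2 other filters, 3 other scalings (20 T cell genes; without abundant RNA classes; upper quartile), library weights, a replicate block, fits of 2 sites alone, and leaving out each library.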

Additional observations from a re-analysis of the deposited data

How the results depend on the processing

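All 10 members were called by the F test under every alternative, including each left-out library. Over the 15 pairs of sites the 112 member calls ranged from 108 to 117 with 1 library left out and from 107 to 113 otherwise; the 36 calls between blood and the organs ranged from 33 to 37 and from 32 to 36. Over all genes, F test calls (11348) ranged from 10719 to 11846 and from 10319 to 12921. Followed through all settings were 53 called differences: blood against the organs, spleen against bone marrow, and neighbouring sites in a member's order. Of these 53, 37 kept call and direction under each and 0 reversed. In at least 1 fit with a library left out, 6 lost their call. Calls lost numbered 7 with T cell scaling, 7 in fits of 2 sites alone, 6 with a pseudocount of 0.1 TPM, 3 with library weights, 2 with no filter, 1 with a pseudocount of 5 TPM and 1 with upper quartile scaling.

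Reversals touched values that had not passed. With T cell scaling, blood minus spleen was 0.11 for Iglc1, and for Ighg2b blood minus lymph node was 0.37 and blood minus lung 0.0098. Ighg2b, blood minus liver, was -0.0153 with a pseudocount of 5 TPM. Iglc1, spleen minus bone marrow, was 0.028 without abundant RNA classes. Igkc, lymph node minus lung, was -0.47 with T cell scaling and -0.13 with upper quartile scaling. With 1 library left out, blood minus lymph node ranged from -0.16 to 0.0101 for Ighg2b, from -0.0414 to 0.0796 for Ighg2c and from -0.0074 to 0.32 for Jchain. Blood minus liver ranged from -1.19 to 0.034 for Ighg1 and from -0.18 to 0.70 for Ighg2b, blood minus lung from -0.63 to 0.26 for Ighg1, and lymph node minus lung from -0.0106 to 0.094 for Igkc.

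T cell scaling raised the share of called genes that were higher in blood from 56.9% to 95% against spleen, 43.9% to 96.6% against lymph node, 41% to 79.8% against bone marrow, 59.1% to 92.8% against liver and 60.5% to 86.5% against lung. For spleen minus bone marrow it went from 24.5% to 6.46%, and to 44.5% without abundant RNA classes and 42.5% with upper quartile scaling. Counted above 5 TPM and not 1 TPM, Ighv and Igkv segments averaged 79.3 and not 143 in blood, 10.7 and not 80.7 in lymph node, and 67.7 and not 128 in bone marrow. The cause was not tested.

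The replicate block changed no member call (10, 112 and 36) and gave 11192 F test calls over all genes. Replicate numbers gave no clear pairing of the libraries. Over 45 same-numbered pairs the correlation of deviations was -0.0345 to 0.0302, and 9 of 18 libraries correlated best with their own number. The median was 0.0068 for the same number and -0.0019 for different numbers. Correlations this small cannot tell whether same-numbered libraries share animals. The liver and lung libraries, with the fewest genes above 0, limit what can be said of members at a few TPM.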
